A study of Mus musculus with 8 samples.

Results

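The NRF2 antioxidant pathway was followed in mouse bile duct epithelium through 10 genes chosen by name, of 47729 genes measured. They are Nfe2l2, which encodes NRF2 itself, its repressor Keap1, and the targets Nqo1, Hmox1, Gclc, Gclm, Txnrd1, Srxn1, Slc7a11 and Gsta4. The source was the healthy liver of adult male mice of the C57/B6 strain, from which cells positive for EpCAM, a surface adhesion protein of duct epithelium, were sorted by flow cytometry. RNA was sequenced from 8 libraries. There were 2 of freshly sorted cells at 0 h, 2 of cells kept for 12 h in Matrigel, a basement membrane gel, with organoid medium, and 1 of cells kept for 24 h. A further library is titled 48h but carries a time point of 24 h in its other labels, and it was kept apart under its title. The last 2 were of organoids, the hollow epithelial structures these cells form, after 6 days. The labels name no altered allele and no added drug in any group, and every group had been through isolation and sorting. They do not say whether replicates came from separate animals or whether animals were pooled, so the p-values reflect the spread among these particular libraries, which may be technical.

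In unstressed cells KEAP1 bridges NRF2 to a CUL3 ubiquitin ligase, and NRF2 is degraded. Oxidants and electrophiles modify cysteines of KEAP1, and NRF2 then accumulates, pairs with a small MAF protein in the nucleus and binds antioxidant response elements, while BACH1 competes for the same sites. NRF2 is thus set largely at the level of its protein, and its targets supply glutathione, thioredoxin reduction, quinone reduction and heme breakdown, for which the liver is a main site. Several of these targets, Hmox1 above all, also answer to other stress factors such as BACH1, AP-1 and ATF4.

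Stretches of promoter sequence are shown for Nfe2l2, Gclm and Txnrd1, which hold the core letters of an antioxidant response element before a start site, for Srxn1, which holds AP-1 letters there, and for Nqo1, the member with the largest early change. Promoter windows from RefSeq on GRCm38.p6, running from 250 bases before to 50 after a start site, were matched by symbol for 7 of the 10 members, in 9 windows. The core was searched as TGACNNNGC on both strands, and the AP-1 site as TGANTCA on both strands. The motifs overlap where TGANTCA, with C for its N, is followed by GC. The 250 bases before the start site are printed 5′ to 3′ on the strand of the gene, with capitals for matches to either motif. They cover chr2:75704664-75704913 on the minus strand for Nfe2l2, chr8:107403206-107403455 on the minus strand for Nqo1, chr3:122245307-122245556 on the plus strand for Gclm, chr10:82858956-82859205 on the plus strand for 1 of 3 start sites of Txnrd1, and chr2:152105274-152105523 on the plus strand for Srxn1.
Nfe2l2: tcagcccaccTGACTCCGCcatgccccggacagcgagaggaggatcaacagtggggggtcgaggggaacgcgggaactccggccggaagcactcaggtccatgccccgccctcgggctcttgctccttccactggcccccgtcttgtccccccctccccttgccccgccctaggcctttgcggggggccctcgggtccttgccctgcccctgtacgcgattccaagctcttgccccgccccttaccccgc
Nqo1: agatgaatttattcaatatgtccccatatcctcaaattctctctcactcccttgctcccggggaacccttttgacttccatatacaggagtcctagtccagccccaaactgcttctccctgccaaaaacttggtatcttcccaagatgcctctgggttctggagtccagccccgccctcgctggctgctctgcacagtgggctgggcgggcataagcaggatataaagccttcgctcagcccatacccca
Gclm: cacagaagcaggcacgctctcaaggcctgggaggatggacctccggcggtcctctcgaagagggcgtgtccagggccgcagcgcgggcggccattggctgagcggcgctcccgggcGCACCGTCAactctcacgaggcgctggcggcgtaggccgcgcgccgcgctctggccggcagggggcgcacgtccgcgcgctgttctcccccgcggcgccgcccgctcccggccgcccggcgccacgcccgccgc
Txnrd1: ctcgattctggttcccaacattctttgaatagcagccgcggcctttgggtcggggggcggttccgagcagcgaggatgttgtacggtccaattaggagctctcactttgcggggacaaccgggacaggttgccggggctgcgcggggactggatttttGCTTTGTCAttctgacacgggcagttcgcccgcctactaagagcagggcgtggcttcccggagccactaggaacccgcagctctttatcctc
Srxn1: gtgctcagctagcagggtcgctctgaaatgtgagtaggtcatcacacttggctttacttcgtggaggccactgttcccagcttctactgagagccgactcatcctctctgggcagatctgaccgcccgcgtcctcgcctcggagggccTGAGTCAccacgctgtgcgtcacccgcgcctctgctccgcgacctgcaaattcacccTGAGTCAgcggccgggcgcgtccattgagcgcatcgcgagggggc

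The core was present in 4 of the 9 member windows, those of Nfe2l2, Gclm, Txnrd1 and Srxn1, against 12.4% of the 32851 windows of the genome. In Gclm it reads GCACCGTCA at bases −134 to −126 from the start site, and in Txnrd1 GCTTTGTCA at −92 to −84, both on the strand opposite to the gene. In Nfe2l2 it reads TGACTCCGC at −240 to −232, on the strand of the gene. Srxn1 holds the core only after its start site, outside the stretch printed, as GCTAGGTCA at bases 29 to 37 on the opposite strand, and TGAGTCA at −102 to −96 and at −45 to −39. TGANTCA was in 1 of the 9 member windows and in 7.81% of all windows. These matches are letters, not measured binding, and nothing about NRF2 follows from a window without them.

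The library facts bear on every value below. The values are RPKM, which divides reads by gene length and by depth, so levels of genes within a library can be roughly set side by side. RPKM does not correct for RNA composition, so smaller differences between libraries depend on scaling. Summed RPKM was 446034 in organoid replicate 1, against 357129 to 369701 in the other 7. Effective reads ranged from 13833021 to 28468801, and 1 read in a gene of 2 kb was worth between 0.0176 and 0.0361 RPKM. The 24 h library detected 8814 genes at 1 RPKM or more, against 10605 to 11263 in the other 7, and 16 of 1302 abundant genes were below 1 RPKM in it, against 0 to 12 in the others. Mitochondrial genes took 7.21% and 5.52% of summed RPKM in fresh cells, 8.83% and 8.68% at 12 h, 9.87% at 24 h, 5.94% in the 48h-titled library and 3.92% and 4.93% in organoids. Duct markers were present in every group, at levels that differed. The 12 listed markers summed to 21949 and 24645 RPKM in fresh cells, 10534 to 15349 at 12 h, 17466 at 24 h, 14331 in the 48h-titled library and 10421 to 16117 in organoids, with Spp1 the most abundant of them in every library. Krt19 had 1650 and 1062 RPKM in fresh cells, 1128 and 257 at 12 h, 162 at 24 h, 634 in the 48h-titled library and 1920 and 1326 in organoids. Epcam, the gene of the sorting marker, lay between 513 and 1175 RPKM in all 8 libraries. In such bulk libraries fewer cells of a type and less RNA per cell cannot be told apart.

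Across the time course the members did not share 1 profile. Nqo1 rose at 12 h and was back near or below its fresh level in organoids. Hmox1 and Srxn1 were lower in organoids than in fresh cells, while the group levels of Nfe2l2 differed by less than its organoid libraries did. Of the 10 members, 9 had at least 1 RPKM in at least 2 libraries and entered the comparison by limma on log2(RPKM + 1), with p-values adjusted by Benjamini-Hochberg over all 12900 genes tested. Slc7a11 did not, so counts of members refer to the other 9. Nqo1, the lowest of the 9 in fresh cells, was above 1 RPKM in 7 of the 8 libraries, fresh ones included, so it did not pass through 1 group alone.

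**Figure D1:**
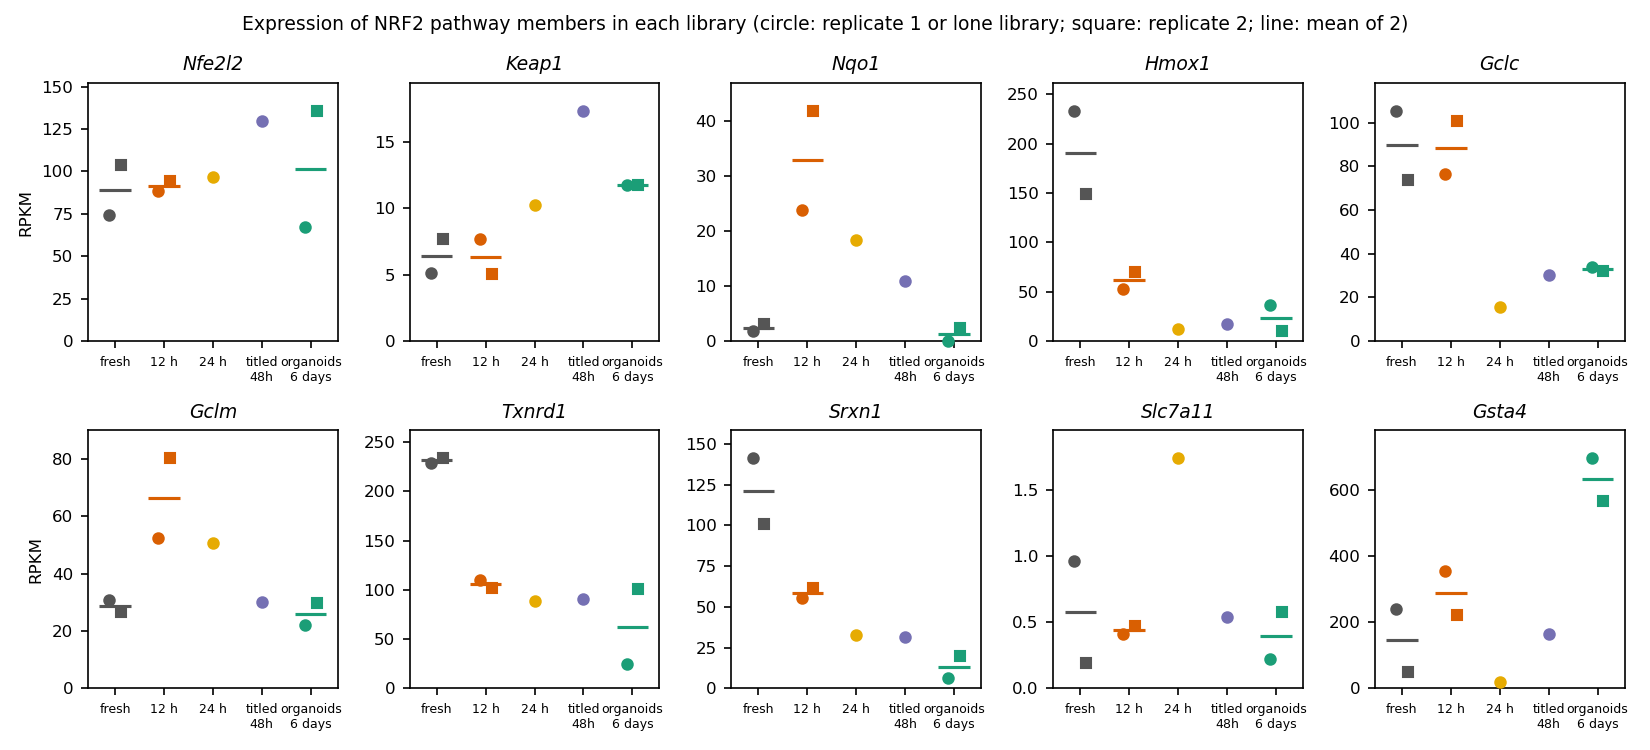
RPKM of each of the 10 members in the 8 libraries, 1 panel per gene with a linear axis from 0. Points are libraries, bars are the means of groups with 2 libraries, and groups run in time order from fresh cells to organoids. Nqo1 peaks at 12 h, where both libraries lie above the other 6, Hmox1, Txnrd1 and Srxn1 are highest in both fresh libraries, and Gsta4 is highest in both organoid libraries.

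At 12 h, 1 of the 9 members tested was higher than in fresh cells and 0 were lower, or 11.1% called, against 6.81% of all genes. The background was 3.09% higher and 3.72% lower. The members' median log2 change was −0.01, against 0.24 over all genes tested. At an unadjusted p under 0.05 there were 3 of the 9 members and 3490 of the 12900 genes tested. In organoids 0 of 9 were higher and 2 were lower than in fresh cells, 22.2% called against 10.1% of all genes, with 5.15% of all genes higher and 4.94% lower. The median log2 change was −0.86 for the members and 0.17 for all genes. Between organoids and 12 h cells 1 of 9 was lower and 0 higher, against 2% of all genes called, 1.38% higher and 0.62% lower, and medians of −1.30 for the members and −0.09 for all genes. With so few members these shares describe the 9 genes and nothing more.

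Scaling matters to the smaller changes. Among genes that averaged 5 RPKM or more the median log2 change was 0.40 at 12 h, 0.27 in organoids, 0.30 at 24 h and 0.45 in the 48h-titled library, each against fresh cells, and −0.17 in organoids against 12 h. Centring every library on its median over these genes turned the 398 higher and 480 lower genes at 12 h into 300 and 839, and the 664 and 637 in organoids into 557 and 836. It also moved the split to 283 higher and 74 lower in organoids against 12 h, where it had been 178 and 80. Testing only genes averaging 5 RPKM or more gave 403 higher and 197 lower at 12 h and 707 and 433 in organoids. Changes of members smaller than these shifts are given no direction. After centring, Nqo1 was 2.90 higher on the log2 scale at 12 h (adjusted p = 0.0316), and in organoids against fresh cells Hmox1 changed by −3.36 (adjusted p = 0.0334) and Srxn1 by −3.41 (adjusted p = 0.00913).

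Nfe2l2, the gene of the transcription factor itself, was abundant throughout. It had 74.5 and 104 RPKM in fresh cells, 88.5 and 94.4 at 12 h, 96.7 at 24 h, 129.6 in the 48h-titled library and 67.2 and 135.8 in organoids. The lowest and the second lowest value were an organoid and a fresh library and the highest was the other organoid library. Organoids thus spanned every other group, and the fresh and 12 h libraries overlapped. The 48h-titled library was above all fresh and 12 h libraries. The means were 91.5 ± 4.22 RPKM at 12 h and 89.2 ± 20.8 RPKM in fresh cells (SD, n = 2 each), a log2 change of 0.05 with a 95% interval of −0.96 to 1.07 (limma, adjusted p = 0.953). In organoids the log2 change against fresh cells was 0.12, with an interval of −0.89 to 1.13 (adjusted p = 0.879). Centring turned both signs, to −0.31 and −0.03, and a p above the threshold does not show that the level stayed the same. The message level says nothing of the amount of NRF2 protein. Nfe2l2 lies at chromosome 2:75675513-75704641 on GRCm38.

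Keap1, the redox sensor that holds NRF2, was the least abundant member after Nqo1 and Slc7a11 in fresh cells. It had 5.10 and 7.69 RPKM in fresh cells, 7.71 and 5.02 at 12 h, 10.3 at 24 h, 17.4 in the 48h-titled library and 11.7 and 11.8 in organoids. Both organoid libraries and both lone libraries were above the fresh and 12 h ones, while fresh and 12 h cells overlapped. The change did not pass the test, with a log2 change of 0.81 (SE 0.42, adjusted p = 0.256) in organoids and 1.33 (SE 0.52, adjusted p = 0.188) in the 48h-titled library, each against fresh cells by limma. Keap1 (9:21229730-21239361) shares 510 exonic bases with the antisense gene Gm16754. The sources used here do not say whether counting used strand, so reads of the pair cannot be told apart.

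Nqo1, the quinone reductase often used as a readout of NRF2, had the most pronounced early change among the members. Its level was 1.82 and 3.10 RPKM in fresh cells, 23.8 and 41.9 at 12 h, 18.3 at 24 h, 10.9 in the 48h-titled library and 0.0465 and 2.36 in organoids. Both 12 h libraries were above all the others, the lone libraries came next, and organoids and fresh cells overlapped. It averaged 32.8 ± 12.8 RPKM at 12 h and 2.46 ± 0.908 RPKM in fresh cells (SD, n = 2 each), a ratio of 13.4. The fitted log2 change was 3.26 (SE 0.66, 95% interval 1.69 to 4.84, limma adjusted p = 0.0407), and it understates the change of low values.

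Against 12 h cells Nqo1 fell in organoids, to 1.20 ± 1.63 RPKM in organoids, against 32.8 ± 12.8 RPKM at 12 h (log2 change −4.12, SE 0.66, limma adjusted p = 0.0391). The organoid libraries were 50.6-fold apart. The values correspond to whole reads in all 8 libraries, and the lower organoid library rested on 1 read, where the higher one had 74 and the 12 h libraries 774 and 1414. Both Nqo1 calls are near the threshold. The call at 12 h was lost without either 12 h library (adjusted p = 0.0774 and 0.0974) and without either fresh library (0.300 and 0.279), and also with a pseudocount of 0.1 RPKM (0.135) and with no filter on low values (0.109). By limma 0 genes of the whole table were called at 12 h without either fresh library, with 1878 and 1672 at an unadjusted p under 0.05. The fall against 12 h was lost without organoid replicate 1, the library with 1 read (adjusted p = 0.108), and without any 1 fresh or 12 h library (0.0642 to 0.195), while without organoid replicate 2 it passed (0.0444). It was lost, too, with the smaller pseudocount (0.0747), with no filter (0.145) and when only the compared groups were fitted (0.189). Nqo1 lies at 8:107388225-107403206.

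Hmox1, heme oxygenase 1, which breaks heme into biliverdin, iron and carbon monoxide, had its highest levels in fresh cells. It had 233 and 148 RPKM in fresh cells, 53.0 and 70.4 at 12 h, 12.0 at 24 h, 16.8 in the 48h-titled library and 36.4 and 9.93 in organoids. Both fresh libraries were above all cultured ones, and both 12 h libraries were above both organoid libraries. Hmox1 fell in organoids, at 23.2 ± 18.7 RPKM in organoids and 191 ± 59.99 RPKM in fresh cells (log2 change −3.21, SE 0.61, limma adjusted p = 0.0272). At 12 h the log2 change of −1.59 did not pass (adjusted p = 0.154). The organoid libraries differed 3.66-fold. Hmox1 lies at 8:75093621-75100589.

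Cells other than duct epithelium also express Hmox1, macrophages and hepatocytes among them, so the marker sums of other cell types are set beside it. The 16 hepatocyte markers summed to 1292 and 1099 RPKM in fresh replicates 1 and 2, and to 46.7 to 81.5 at 12 h. Their sum was 91.3 at 24 h, 344 in the 48h-titled library and 9.41 to 27.9 in organoids. Alb and Ttr are on that list, and 9 of its 16 members, Cps1 and Cyp2e1 among them, were listed at 0 in both organoid libraries. In the 48h-titled library the list did not move as 1. Fga had 174 RPKM and Fgb 79.7 RPKM there, above both fresh libraries. Every other listed hepatocyte marker was below both fresh libraries, with Alb at 58.9 RPKM and 6 of the 16 at 0. The 6 erythroid markers summed to 67.7 and 5.78 RPKM in fresh replicates 1 and 2, and to 0.483 to 8.64 at 12 h. Their sum was 0 at 24 h, 0.866 in the 48h-titled library and 0.144 to 0.385 in organoids. The 14 markers of macrophages and other leukocytes summed to 29.9 and 20.8 RPKM in fresh replicates 1 and 2, and to 8.34 to 17.7 at 12 h. Their sum was 4.88 at 24 h, 27.2 in the 48h-titled library and 11.4 to 25.7 in organoids. Cd68 made up most of that sum in every library except fresh replicate 2 and the 24 h library. Csf1r, the receptor that macrophages depend on, had 5.21 and 10.9 RPKM in fresh cells and 1.92 and 1.79 RPKM in organoids. Lyz2 had 2.07 and 1.89 RPKM in fresh cells and 1.66 and 2.62 RPKM in organoids. Of the 14 markers, 3 were listed at 0 in both fresh libraries, against 11 in both organoid libraries. The number reaching 1 RPKM in any library was 3 in fresh cells and 3 in organoids. The 8 endothelial markers summed to 4.63 to 4.85 RPKM in fresh cells and at most 2.17 RPKM in any other library, and the 6 mesothelial ones to 25.8 to 35.9 and at most 5.78. The 10 mesenchymal and stellate markers summed to 64.3 to 76.9 RPKM in fresh cells, 181 to 389 at 12 h, 438 at 24 h, 37.8 in the 48h-titled library and 0.290 to 2.08 in organoids. Rgs5 alone had 179 and 389 RPKM at 12 h and 438 at 24 h, while 7 of the 10 were listed at 0 in both 12 h libraries and 9 of 10 at 24 h. The part of these cell types in the change of Hmox1, Srxn1 or the other members was not tested.

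Gclc and Gclm encode the catalytic and the modifier subunit of glutamate-cysteine ligase, the first enzyme of glutathione synthesis, and their profiles over time differed. Gclc had 105 and 73.6 RPKM in fresh cells, 76.4 and 101 at 12 h, 15.4 at 24 h, 30.3 in the 48h-titled library and 34.1 and 32.1 in organoids. The fresh and 12 h libraries overlapped, and both lay above the 4 later libraries. Its log2 change against fresh cells was −0.01 at 12 h (adjusted p = 0.997) and −1.39 in organoids (SE 0.35, adjusted p = 0.0535), just short of the threshold. In the single 24 h library, which the fit assumes to vary like the groups with 2, Gclc was lower (log2 change −2.44, SE 0.43, adjusted p = 0.0259).

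Gclm had 30.9 and 26.7 RPKM in fresh cells, 52.4 and 80.4 at 12 h, 50.7 at 24 h, 30.2 in the 48h-titled library and 22.2 and 29.8 in organoids. Both 12 h libraries were above all others, and organoids overlapped with fresh cells. The means were 66.4 ± 19.8 RPKM at 12 h and 28.8 ± 2.96 RPKM in fresh cells, a ratio of 2.31 that did not pass the test (log2 change 1.15, SE 0.37, adjusted p = 0.108). On the RPKM scale, Gclc was above Gclm in both fresh libraries and below it at 24 h. Gclc lies at 9:77754535-77794485 and Gclm at 3:122245557-122270732, where 540 exonic bases are shared with Gm17494 and Gm6061, so part of its reads may belong to them.

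Slc7a11, the cystine importer that feeds glutathione synthesis, was below 1 RPKM in 7 of the 8 libraries. It had 0.961 and 0.194 RPKM in fresh cells, 0.408 and 0.473 at 12 h, 1.74 at 24 h, 0.541 in the 48h-titled library and 0.218 and 0.576 in organoids. The 24 h library was the only one above 1 RPKM, and the fresh libraries, 4.94-fold apart, spanned the 12 h and organoid values. These levels came from 42 to 466 reads over the 13922 exonic bases of the gene (3:49892526-50443614), and no test was run on it.

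Txnrd1, the cytosolic thioredoxin reductase, and Srxn1, sulfiredoxin, which repairs over-oxidised peroxiredoxins, were both highest in fresh cells. Txnrd1 had 229 and 234 RPKM in fresh cells, 110.3 and 102 at 12 h, 88.2 at 24 h, 90.5 in the 48h-titled library and 24.4 and 101 in organoids. Both fresh libraries were above all 6 cultured ones, and the organoid libraries were 4.13-fold apart. The log2 change was −1.12 at 12 h (SE 0.62, adjusted p = 0.303) and −2.20 in organoids (SE 0.62, adjusted p = 0.0726), so neither passed. Without organoid replicate 2 the organoid change passed (adjusted p = 0.0281).

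Srxn1 had 141 and 101 RPKM in fresh cells, 55.7 and 61.8 at 12 h, 33.0 at 24 h, 31.4 in the 48h-titled library and 6.51 and 19.8 in organoids. Its groups did not overlap, in descending order of fresh cells, 12 h, the lone libraries and organoids. Srxn1 fell in organoids, with 13.2 ± 9.42 RPKM in organoids and 121 ± 28.8 RPKM in fresh cells, 9.18-fold lower (log2 change −3.26, SE 0.52, limma adjusted p = 0.0181). At 12 h the log2 change of −1.01 did not pass (adjusted p = 0.271). The organoid calls of Hmox1 and Srxn1 were lost without fresh replicate 1 (adjusted p = 0.234 and 0.189), without fresh replicate 2 (0.219 and 0.173), without organoid replicate 1 (0.0507 and 0.0519) and with no filter on low values (0.0976 and 0.0683). Txnrd1 lies at 10:82833951-82897712 and Srxn1 at 2:152105516-152111376.

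Gsta4, a glutathione S-transferase that conjugates the lipid peroxidation product 4-hydroxynonenal, had its highest levels in organoids. It had 241 and 50.1 RPKM in fresh cells, 355 and 223 at 12 h, 18.8 at 24 h, 164.8 in the 48h-titled library and 698 and 569 in organoids. Both organoid libraries were above the other 6, and the 24 h library was the lowest. The means were 633 ± 91.5 RPKM in organoids and 145 ± 135 RPKM in fresh cells (SD, n = 2 each), and with fresh libraries 4.81-fold apart the log2 change of 2.51 did not pass (SE 0.71, adjusted p = 0.0727). At 12 h it was 1.35 (adjusted p = 0.280). Gsta4 (9:78182774-78209349) belongs to a family of similar genes, and the sources used here do not say how reads were shared among them.

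**Figure D2:**
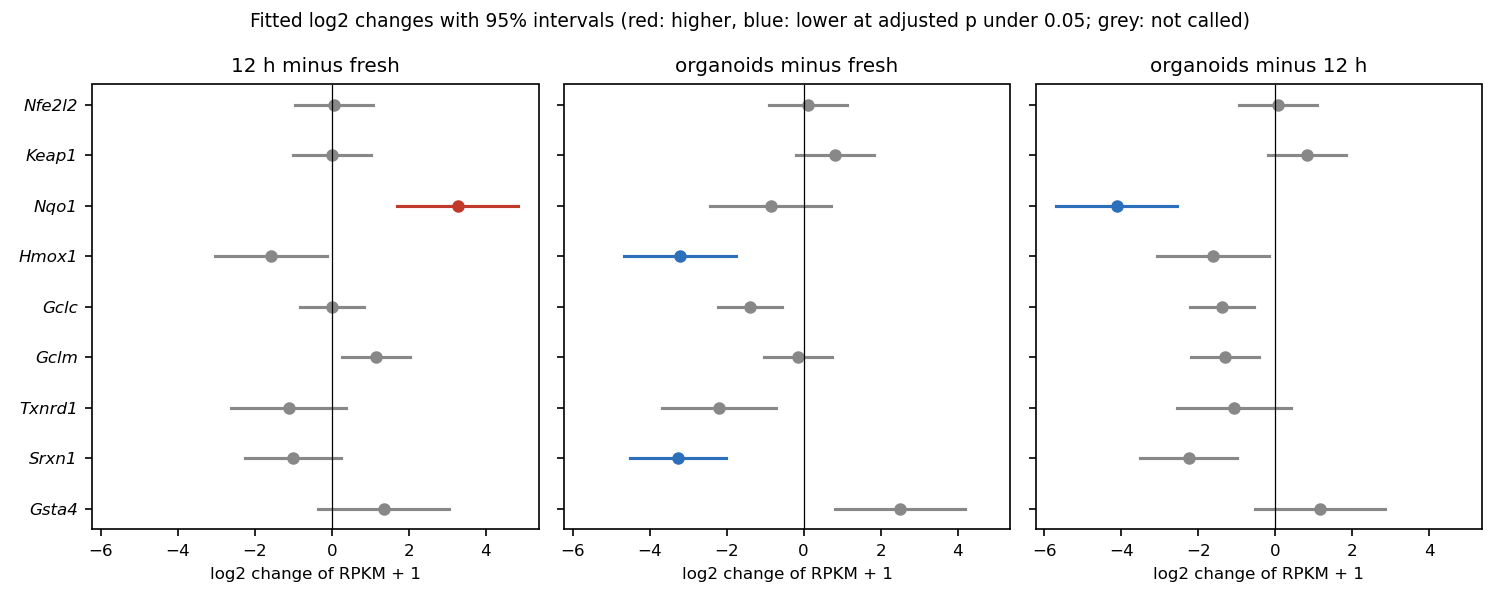
Fitted log2 change of log2(RPKM + 1) for the 9 members tested, with 95% intervals from limma, in 12 h against fresh cells, organoids against fresh cells and organoids against 12 h. Coloured points passed an adjusted p of 0.05, red for higher and blue for lower, and grey ones did not. Nqo1 is coloured at 12 h (3.26) and in organoids against 12 h (−4.12), and Hmox1 (−3.21) and Srxn1 (−3.26) are coloured in organoids against fresh cells.

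For each gene the 12 h level was also set against the mean of fresh cells and organoids. This contrast is called 12 h against both ends below. A gene lying between fresh cells and organoids can pass it too, so a call is not by itself a peak or trough. By limma 0 of the 9 members and 0 of all genes were called, a background of 0%, although 2 members and 3015 genes had an unadjusted p under 0.05. Nqo1 had a log2 difference of 3.69 (adjusted p = 0.0686) and Gclm one of 1.23 (adjusted p = 0.105). After centring 126 genes were called, and Nqo1 was among them (adjusted p = 0.0457). The other 7 members had adjusted p-values above these.

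The single 24 h library had 0 of 9 members higher and 2 lower than fresh cells, with 10.9% of all genes called, 4.26% higher and 6.66% lower. These were Gclc, given above, and Hmox1 (log2 change −3.84, SE 0.75, adjusted p = 0.0311). Gsta4 (−2.49, adjusted p = 0.107), Srxn1 (−1.82, adjusted p = 0.108) and Nqo1 (2.51, adjusted p = 0.0882) did not pass. Both calls were lost without fresh replicate 1 (adjusted p = 0.163 for Gclc and 0.208 for Hmox1) or fresh replicate 2 (0.130 and 0.183), and that of Hmox1 with no filter (0.0969). This is the library with fewest genes detected, and the part of that in its low values was not tested. In the 48h-titled library 0 of 9 members were called, against 3.31% of all genes (1.84% higher and 1.47% lower). At an unadjusted p under 0.05 there were 4 of the 9 members and 3026 of the 12900 genes tested in that library. Hmox1 had a log2 change of −3.39 (adjusted p = 0.0626) there. Centring gave 519 higher and 1609 lower genes at 24 h, where there had been 550 and 859, and 206 and 372 in the 48h-titled library, where there had been 237 and 190. The member levels summed to 1063 and 748 RPKM in fresh cells, 823 and 781 at 12 h, 345 at 24 h, 523 in the 48h-titled library and 901 and 911 in organoids, sums in which Gsta4 makes up most of the organoid value.

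Some pairs of members had like profiles over the 8 libraries. Among them were Nqo1 and Gclm (Pearson r = 0.91, Spearman rho = 0.83, r = 0.84 without the 2 libraries farthest from the Nqo1 median). Txnrd1 and Srxn1 were another pair (r = 0.94, rho = 0.86, r = 0.84 without 2 libraries), and so did Hmox1 and Gclc (r = 0.87, rho = 0.86, r = 0.87 without 2 libraries). Nqo1 and Hmox1 had an r of −0.14, and the subunit pair Gclc and Gclm one of 0.22. Keap1 had negative values with Gclc (r = −0.80) and Hmox1 (r = −0.77). The libraries form 5 groups and share their depth and composition across genes, so these values describe likeness and carry no test.

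**Figure D3:**
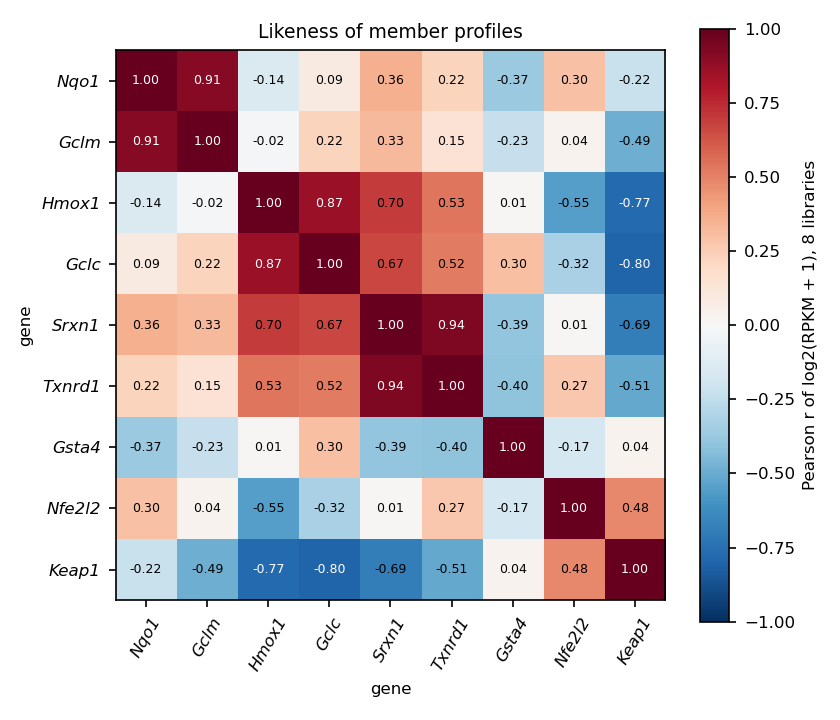
Pearson correlation of log2(RPKM + 1) over the 8 libraries between each pair of the 9 members tested, on a colour scale from −1 to 1. Nqo1 with Gclm (0.91) and Txnrd1 with Srxn1 (0.94) are among the warmest cells, and Keap1 with Gclc (−0.80) among the coldest.

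The genes most like the 3 most variable members were ranked among 6868 protein-coding genes averaging 5 RPKM or more, with predicted, ribosomal protein and mitochondrial genes left out. For Nqo1 they were Rdx (r = 0.989), Noc2l (0.987) and Furin (0.982). The r speaks to the shape of a profile and not to the size of its change. Rdx lay between 21.3 and 53.0 RPKM, where Nqo1 ran from 0.0465, a value of 1 read, to 41.9 RPKM. For Gsta4 they were Micu2 (0.962), Ociad1 (0.961) and Yipf2 (0.954). For Hmox1 they were Slc3a2 (0.955), Oser1 (0.953) and Fbxw11 (0.951). Slc3a2 is the heavy chain that pairs with the cystine importer, and Fbxw11 is a ubiquitin ligase subunit that recognises phosphorylated NRF2.

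The wider pathway was read from 8 lists with 103 other genes, of which 97 were tested. At 12 h 7 were higher and 13 lower than in fresh cells, 20.6% called, and in organoids 8 were higher and 15 lower, 23.7% called, against 6.81% and 10.1% of all genes. Their median log2 changes were −0.02 and 0.12. The lists were chosen with earlier results of these data known, so the shares called describe the listed genes and are no test of the pathway. In organoids against 12 h 1 of 97 was called, Ephx1, which hydrolyses reactive epoxides (152 ± 37.4 RPKM in organoids and 22.3 ± 0.494 RPKM at 12 h, log2 change 2.69, adjusted p = 0.0272). At 24 h 5 were higher and 17 lower, 22.7% called against 10.9% of all genes, and in the 48h-titled library 1 was higher and 6 lower, 7.22% against 3.31%. Without either fresh library 0 of these genes were called in any of the 3 comparisons of groups with 2 libraries, by limma, with 21 to 35 at an unadjusted p under 0.05. At 12 h 0 and 1 were called without 12 h replicate 1 and 2, and in organoids 6 without organoid replicate 1, while without organoid replicate 2 there were 23. The counts by list below stand against 3.09% of all genes higher and 3.72% lower at 12 h, and 5.15% higher and 4.94% lower in organoids, so a count of 1 in a list this short is not set apart from that background. Over the calls in all comparisons, none turned sign under any alternative tried, and 67 of 73 kept direction and call after centring.

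Among 13 regulators and partners of NRF2, 1 rose and 2 fell at 12 h, and 2 rose and 3 fell in organoids. Sqstm1, which encodes p62, the autophagy receptor that sequesters KEAP1 and is itself a target, fell in both comparisons. It had 548 ± 121 RPKM at 12 h and 177 ± 15.0 RPKM in organoids, against 2618 ± 428 RPKM in fresh cells (SD, n = 2 each, log2 changes −2.26 and −3.87, limma adjusted p = 0.0285 and 0.00664). Mafk, a small MAF partner, fell to 9.71 ± 6.09 RPKM at 12 h and 4.17 ± 2.60 RPKM in organoids, against 70.1 ± 21.4 RPKM in fresh cells (limma adjusted p = 0.0451 and 0.0177). Maff, another small MAF, fell in organoids (log2 change −2.68, adjusted p = 0.0316). Dpp3, a peptidase that binds KEAP1, rose to 79.6 ± 2.44 RPKM at 12 h and 88.9 ± 41.4 RPKM in organoids, against 17.2 ± 0.240 RPKM in fresh cells (limma adjusted p = 0.0361 and 0.0236).

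Of 15 glutathione genes tested, 1 rose and 2 fell at 12 h, and 1 rose and 3 fell in organoids. Chac1, which degrades glutathione and is a textbook ATF4 target, fell to 17.3 ± 3.78 RPKM at 12 h and 3.78 ± 1.10 RPKM in organoids, against 175 ± 1.57 RPKM in fresh cells (limma adjusted p = 0.0198 and 0.00573). Slc3a2 fell in organoids, to 61.7 ± 20.4 RPKM in organoids, against 428 ± 23.8 RPKM in fresh cells (adjusted p = 0.0119). Abcc4, an exporter of organic anions, rose at 12 h (59.3 ± 3.48 RPKM at 12 h and 14.5 ± 1.34 RPKM in fresh cells, adjusted p = 0.0472). Gpx2, the glutathione peroxidase of gut epithelium, rose in organoids to 981 ± 521 RPKM, against 58.9 ± 26.6 RPKM in fresh cells (16.7-fold higher, adjusted p = 0.0167).

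In the thioredoxin and peroxiredoxin system 1 of 14 rose and 1 fell at 12 h, and 2 rose and 1 fell in organoids. Txn1, thioredoxin itself and the substrate of Txnrd1, rose at 12 h to 944 ± 108 RPKM, against 285 ± 7.37 RPKM in fresh cells (log2 change 1.72, adjusted p = 0.0365). In organoids the risers were the peroxiredoxins Prdx2 (log2 change 3.01, adjusted p = 0.0339) and Prdx6 (2.06, adjusted p = 0.0178). Sesn2, a stress-induced sestrin, fell in both (−3.21 at 12 h, adjusted p = 0.0366, and −2.60 in organoids, adjusted p = 0.0466).

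Of 19 glutathione S-transferases tested, 1 rose and 5 fell at 12 h, and 0 rose and 4 fell in organoids. Gstm7 fell to 0.0144 ± 0.0203 RPKM at 12 h and 0.985 ± 0.650 RPKM in organoids, against 11.4 ± 2.75 RPKM in fresh cells (limma adjusted p = 0.0195 and 0.0177). Gstm1 fell to 24.4 ± 7.85 RPKM at 12 h and 21.9 ± 1.33 RPKM in organoids, against 153 ± 4.59 RPKM in fresh cells (limma adjusted p = 0.0239 and 0.0119). Gstt1 fell to 21.2 ± 3.17 RPKM at 12 h and 19.1 ± 10.4 RPKM in organoids, against 169 ± 11.6 RPKM in fresh cells (limma adjusted p = 0.0264 and 0.0132). Hepatocytes express many of these genes strongly, and the summed hepatocyte markers above fell with them, whose part was not tested. The family members are alike in sequence, so the split of reads between them is uncertain.

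Among 16 other detoxification enzymes 0 rose and 2 fell at 12 h, and 1 rose and 3 fell in organoids. Osgin1, an oxidative stress-induced growth inhibitor, fell to 52.8 ± 6.52 RPKM at 12 h and 19.7 ± 7.58 RPKM in organoids, against 259 ± 62.4 RPKM in fresh cells (limma adjusted p = 0.0335 and 0.00891). Aldh1a1, a retinaldehyde dehydrogenase, fell in organoids (log2 change −4.11, adjusted p = 0.0119), while the aldo-keto reductase gene Akr1c13 rose to 34.9 ± 20.5 RPKM in organoids, against 1.72 ± 0.119 RPKM in fresh cells (adjusted p = 0.0157).

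Among 7 genes of NADPH supply 2 rose and 0 fell in each comparison. Pgls, a lactonase of the pentose phosphate pathway, rose to 40.4 ± 2.76 RPKM at 12 h and 52.4 ± 1.17 RPKM in organoids, against 6.86 ± 3.48 RPKM in fresh cells (limma adjusted p = 0.0304 and 0.0146). Taldo1, transaldolase, rose at 12 h (399 ± 17.6 RPKM at 12 h and 115 ± 32.1 RPKM in fresh cells, adjusted p = 0.0413), and Tkt, transketolase, in organoids (79.7 ± 11.2 RPKM in organoids and 23.4 ± 4.15 RPKM in fresh cells, adjusted p = 0.0263). Of 9 heme and iron genes 1 rose and 0 fell at 12 h, and 0 were called in organoids. That gene was Slc48a1, which moves heme out of endosomes and lysosomes (157 ± 0.581 RPKM at 12 h and 39.1 ± 15.4 RPKM in fresh cells, adjusted p = 0.0343). Among the superoxide dismutases and catalase, 1 of 4 genes fell in each comparison: the extracellular Sod3 fell at both stages (log2 change −4.52 at 12 h, adjusted p = 0.0189, and −2.59 in organoids, adjusted p = 0.0200).

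**Figure D4:**
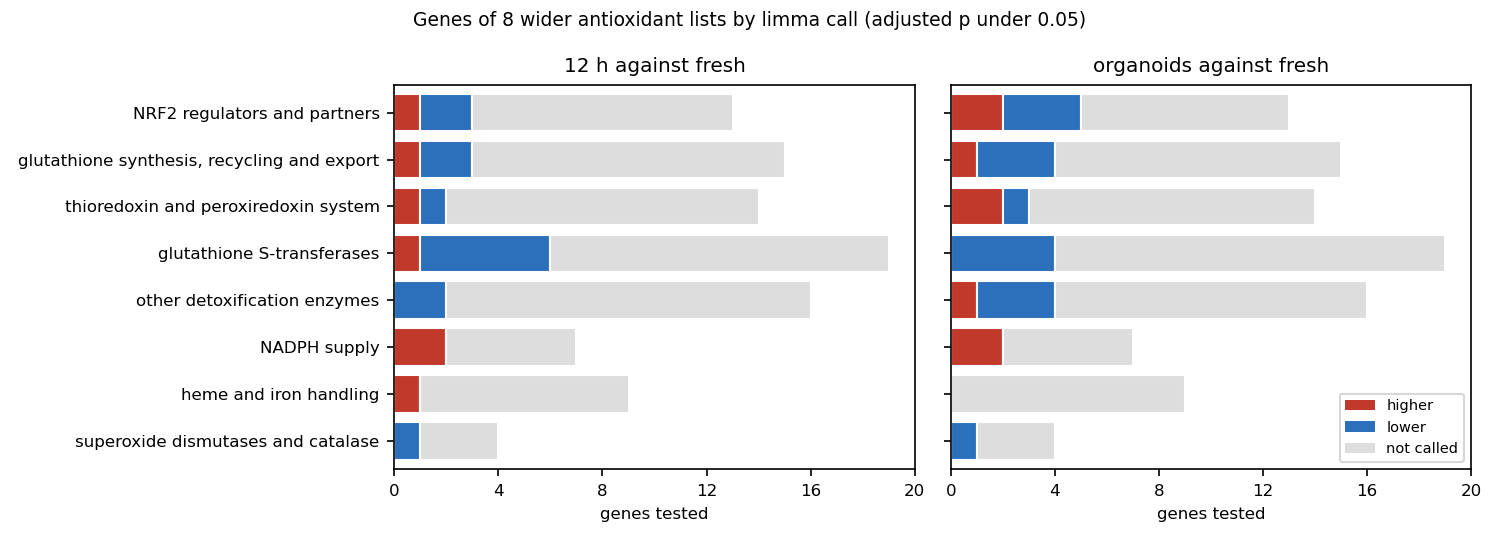
Number of genes called higher and lower, at an adjusted p of 0.05 by limma, in each of the 8 wider pathway lists, for 12 h and organoids against fresh cells, on an axis of genes tested. The transferases have 5 lower genes at 12 h and 4 in organoids, and NADPH supply has 2 higher and 0 lower in both comparisons.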

How the data were processed

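Smart-seq2 cDNA, made into libraries by Nextera XT tagmentation from column-purified RNA, was sequenced for 8 libraries, per the labels' protocols. The authors deposited 1 table of RPKM, reads scaled to gene length and to library depth, and the submitters' processing notes name GRCm38 and edgeR. The aligner, counter, annotation release and strandedness are not stated in what was used here. GENCODE M21 named 47224 of 47729 genes and supplied coordinates.

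Between 88.4% and 91.4% of small values per library were whole multiples, within 0.01, of a 1-read value, which gave the effective reads. That test used GENCODE exon lengths, so reads are given only for genes where it held in all 8 libraries. The libraries carry no molecular identifiers, so reads are not independent molecules and their number speaks to counting error only.

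Genes reaching 1 RPKM in 2 or more libraries were compared as log2(RPKM + 1) with limma 3.58.1 in R 4.3.3, with 1 coefficient per group over all 8 libraries, eBayes with trend, two-sided tests, Benjamini-Hochberg adjustment within each comparison and a threshold of 0.05. The residual degrees of freedom were 3, and a lone library was assumed to vary like the groups with 2. In tables simulated for 12 h against fresh cells with 12900 genes, log2 changes of 1 were recovered in 1.6%, of 2 in 42.8% and of 4 in 98.4%. False calls averaged 11.4 per simulated table. The noise was independent and normal, and only genes with a mean log2(RPKM + 1) above 3 were changed. Recovery at lower levels was therefore not tried. The 10 members and the 8 lists of 103 pathway genes and the marker lists were chosen with earlier results of these data known. All members are named, and from each list up to 3 genes that passed in a comparison, by size of change, averaging 5 RPKM or more in those libraries. Alternatives changed the pseudocount, filter, scaling, weights, trend, block and libraries fitted.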

Additional observations from a re-analysis of the deposited data

How the results depend on the processing

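Members called were 1 at 12 h, 2 in organoids, both against fresh cells, 1 in organoids against 12 h and 0 in 12 h against both ends, 2 at 24 h and 0 in the 48h-titled library. With a pseudocount of 0.1 RPKM, 0 members were called at 12 h (916 genes) and 0 in organoids against 12 h (418 genes). Genes called became 137 in 12 h against both ends, 2258 at 24 h and 114 in the 48h-titled library. With no filter on low values, and 26693 genes tested, 0 members were called at 12 h (423 genes), 0 in organoids (740 genes) and 1 at 24 h (1000 genes). That fit called 0 members in organoids against 12 h (0 genes by limma, 3379 at an unadjusted p under 0.05), and 930 genes in the 48h-titled library. With genes of a mean of at least 5 RPKM, 5 members were called in organoids (1140 of 7319 genes) and 1 in the 48h-titled library (372 genes). That filter gave 151 genes in organoids against 12 h and 12 in 12 h against both ends. Centring on library medians called 4 members in organoids (1393 of 12900 genes) and 1 in 12 h against both ends (126 genes). It called 2128 genes at 24 h. Quantile normalization called 4 members in organoids (1802 genes) and 2 in the 48h-titled library (722 genes). Fitting only the groups compared called 2 members at 12 h (1019 genes) and 0 in organoids against 12 h (0 genes by limma, 1686 unadjusted). For the lone libraries the organoids were kept in that fit as well, and 2275 genes were called at 24 h. Library weights gave 1601 genes at 12 h, 28 genes and 0 members in organoids against 12 h, 4526 genes and 4 members at 24 h, and 2690 genes and 3 members in the 48h-titled library. Without the trend 545 genes were called at 12 h, and with the 48h-titled library counted as a second 24 h library 678 genes at 24 h. The cause of these moves was not tested.

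Leaving out 1 replicate at a time gave 0 to 1082 genes and 0 to 2 members at 12 h, 0 to 1418 and 0 to 3 in organoids, 0 to 321 and 0 to 3 in organoids against 12 h, 0 to 0 and 0 to 0 in 12 h against both ends, 0 to 2313 and 0 to 4 at 24 h, and 0 to 521 and 0 to 1 in the 48h-titled library. Without fresh replicate 1 or 2, 0 genes were called by limma in any of the 6 comparisons, with 1534 to 2417 at an unadjusted p under 0.05. A fit without the 24 h library or without the 48h-titled library, both chosen after seeing the data, gave 900 and 858 genes at 12 h, with 1 member called in each.

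Gclc, Txnrd1 and Gsta4 in organoids against fresh cells, not called in the reported comparison, passed with genes of a mean of at least 5 RPKM (adjusted p = 0.0450, 0.0480 and 0.0464). Gclc and Txnrd1 also passed with centring (0.0454 and 0.0370) and quantile normalization (0.0259 and 0.0449), and Txnrd1 with library weights (0.0375). Centring turned Nfe2l2 to −0.31 at 12 h, −0.0278 in organoids and −0.23 at 24 h, Hmox1 to −0.28 and Gsta4 to −0.20 in 12 h against both ends, and Gclm to −0.32 in the 48h-titled library. Quantile normalization turned Nfe2l2 to −0.22, −0.14 and −0.12 in the first 3, Hmox1 to −0.082 and Gclm to −0.34. Over the fits that leave out 1 replicate, log2 changes that turned sign ranged as follows. At 12 h Nfe2l2 ranged from −0.18 to 0.29, Gclc from −0.26 to 0.25 and Keap1 from −0.27 to 0.26. In organoids Nfe2l2 ranged from −0.38 to 0.62 and Gclm from −0.36 to 0.0534, and against 12 h Nfe2l2 from −0.44 to 0.57. In 12 h against both ends Nfe2l2 ranged from −0.26 to 0.25, Hmox1 from −0.43 to 0.46, Gsta4 from −0.47 to 0.65 and Txnrd1 from −0.52 to 0.48. At 24 h Nfe2l2 ranged from −0.10 to 0.37, and in the 48h-titled library Gclm from −0.0296 to 0.17 and Gsta4 from −0.54 to 1.70. Of all members' changes under the alternatives, 780 kept direction and call, 32 gained the call, 28 lost it and 33 turned. Among the wider pathway genes, 20 were called at 12 h and 23 in organoids, with 5 and 12 with no filter, 22 and 23 after centring and 12 and 19 without the trend. Over the 73 calls of these genes in all comparisons, 817 repeats kept direction and call, 344 lost the call and 0 turned.

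Same-numbered libraries had deviations that correlated at 0.195 between fresh and 12 h cells, 0.224 between fresh cells and organoids and 0.0175 between 12 h cells and organoids over 12900 genes, so the numbers were not taken to pair the libraries. With the replicate number as a block, 713 genes and 1 member were called at 12 h, 1419 and 3 in organoids, where Gsta4 was the added one (adjusted p = 0.0333), and 208 and 1 in organoids against 12 h. At 2 libraries per group and these depths, changes of genes below 1 RPKM in most libraries, such as Slc7a11, were not tested, and the level of Nqo1 in organoids rests on 1 and 74 reads.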

Other observations

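Beyond the members, the single 24 h library had very low values of several antioxidant genes that were plain in all 7 other libraries. Gss, which completes glutathione synthesis, had 0.00880 RPKM at 24 h and 27.7 ± 7.27 RPKM in fresh cells (limma adjusted p = 0.0210), with between 9.20 and 33.4 RPKM in the other 7 libraries. Ptgr1, a reductase of lipid aldehydes and ketones, had 0.0227 RPKM at 24 h and 27.4 ± 2.98 RPKM in fresh cells (adjusted p = 0.0166). Blvra, biliverdin reductase, had 0.0639 RPKM at 24 h and 7.75 ± 3.14 RPKM in fresh cells (adjusted p = 0.0306), and 38.6 RPKM in the 48h-titled library. Gstz1, a transferase of tyrosine breakdown, had 0.751 RPKM at 24 h and 28.3 ± 0.868 RPKM in fresh cells (adjusted p = 0.0168), and Glrx, glutaredoxin, 4.14 RPKM at 24 h and 42.6 ± 1.93 RPKM in fresh cells (adjusted p = 0.0224). Gstt3 was higher (46.6 RPKM at 24 h and 5.79 ± 1.83 RPKM in fresh cells, adjusted p = 0.0436). In the same 24 h library Fech, which inserts iron into heme, was higher (74.5 RPKM at 24 h and 13.4 ± 3.49 RPKM in fresh cells, adjusted p = 0.0328). The mitochondrial thioredoxin gene Txn2 was higher too (125 RPKM at 24 h and 26.8 ± 6.53 RPKM in fresh cells, adjusted p = 0.0294). With 1 library at 24 h these values have no replicate, and the part of its lower number of detected genes was not tested.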
